A study of Mus musculus with 9 samples.

Results

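Depp1, Foxo1, Foxo3, Txnip, Pik3ip1, Ccng2, Arrdc3 and Sesn1 are 2 FOXO transcription factor genes and 6 genes described as FOXO-responsive. All 8 were found by gene identifier among the 11802 genes of the deposited table. They were put together with the difference between the libraries labelled KO and WT already known, so that difference is described for them and not tested. They were thus selected on the CPM values of the same 9 libraries. The RNA was bound to endothelial ribosomes of mouse white adipose tissue, captured by the RiboTag method, in which Cre tags the ribosomal protein Rpl22 with HA and an antibody to the tag retrieves ribosomes with their RNA. The 4 libraries labelled WT came from Pdgfb-iCreERT2:Rpl22HA mice. The 5 labelled KO came from Pdgfb-iCreERT2:Mfn2iΔEC:Rpl22HA mice, in which the endothelial gene for mitofusin 2 is deleted. Both groups therefore carry the inducible Cre, driven by Pdgfb, and the tagged ribosomal protein. The sources used here give neither the age and sex of the mice nor the inducing treatment or the deleted exons.

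FOXO factors bind DNA and switch on genes for growth arrest, stress resistance and autophagy. The kinase AKT, acting below insulin and growth factor receptors and PI3K, phosphorylates them and sends them out of the nucleus, so much of their activity is set at the protein and not at the RNA. In endothelium, FOXO1 is known for holding back growth and metabolism.

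Library totals ran from 1052310 to 3887685 reads. Mfn2 itself was at 36.1 ± 15.0 CPM (reads scaled to a common library total; SD, n = 4) under the WT label and 66.7 ± 37.0 CPM (SD, n = 5) under the KO label, where replicate 1 reached 129.6 CPM. Across the whole table most genes lay higher under the KO label, with a median difference of 1.10 on log2(CPM + 1). Each gene is therefore also given as its relative level, its log2(CPM + 1) minus the median of its library, on which the median difference over all genes was 0.12. On that scale Mfn2 was at 1.66 ± 0.48 under WT and 1.50 ± 0.67 under KO (SD, n = 4 and 5), a difference of −0.16 (SE 0.37). The groups overlapped for Mfn2 on both scales, so the gene does not check the labels and each direction here rests on them. The mitochondrial rRNAs took from 13.6% to 64.2% of reads under WT, with replicate 4 at the low end, and from 12.6% to 24.8% under KO. All 12 endothelial markers checked were above 0 in every library, and their summed level ran from 795 to 2804 CPM under WT and from 2436 to 5538 CPM under KO. In such bulk captures, fewer cells of a type and less RNA per cell cannot be told apart.

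The promoters of Txnip and Depp1 are shown because these were the 2 genes whose groups separated both in CPM and in relative level. Sequences are from RefSeq (GRCm38.p6), 5′ to 3′ on the plus strand. The Txnip stretch is chr3:96557707-96557956, ending at the base before the annotated start. The Depp1 stretch is chr6:116650434-116650608, ending before the first annotated exon of the gene. Capitals mark matches to the motifs searched.
Txnip: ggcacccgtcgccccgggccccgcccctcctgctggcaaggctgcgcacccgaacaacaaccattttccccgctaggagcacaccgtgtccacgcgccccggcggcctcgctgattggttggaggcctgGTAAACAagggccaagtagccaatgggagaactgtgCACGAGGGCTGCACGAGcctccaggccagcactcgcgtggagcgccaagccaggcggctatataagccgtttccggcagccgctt
Depp1: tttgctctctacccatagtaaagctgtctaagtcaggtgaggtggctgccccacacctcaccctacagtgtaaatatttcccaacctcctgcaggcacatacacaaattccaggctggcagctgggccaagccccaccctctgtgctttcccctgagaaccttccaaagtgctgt

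The search covered the 250 bases before each RefSeq start on both strands, in 11 windows for the 8 genes. The FOXO core motif GTAAACA was found for 1 gene, Txnip, from 121 to 115 bases before its start. This motif was present in 3.17% of all 32851 promoter windows of that length. GTAAACA was the only form of it searched. The Depp1 stretch shown holds gtaaata, which differs from GTAAACA in 1 base and was not part of the search. Txnip also held a pair of CACGNG separated by 5 bases, the arrangement of carbohydrate response elements bound by the glucose-sensing factors MLXIP and MLXIPL, from 85 to 69 bases before the start. That pair was in 0.0457% of the windows and was added to the search after the sequence had been read. The insulin response core CAAAACA, in 5.56% of windows, matched in Ccng2 alone, 16 to 10 bases before its start. The E-box CACGTG, in 6.02% of windows, matched in none of the 8 genes. A missing match says only that these letters were not in this window. Of the motifs searched, the E-box CACGTG is 1 form of the CACGNG in the carbohydrate response pair.

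Both FOXO factor genes lay near the shift of all genes. Foxo1 (ENSMUSG00000044167; GRCm38 chromosome 3, 52268336 to 52353221, plus strand), the factor best known in endothelium, was at 8.55, 24.5, 3.68 and 34.2 CPM in WT replicates 1 to 4. Under the KO label it was at 32.2, 44.0, 32.5, 36.3 and 39.9 CPM in replicates 1 to 5. The libraries labelled KO sat close together, while WT replicate 3 was far below WT replicates 2 and 4, and the groups overlapped through WT replicate 4. The means were 17.7 ± 14.1 CPM (SD, n = 4) and 37.0 ± 5.02 CPM (SD, n = 5), a log2 difference of 1.41 (SE 0.51) in CPM and 0.44 (SE 0.44) in relative level. WT replicate 3 held 7 Foxo1 reads, and without that library the relative difference was −0.07 and that in CPM 0.88. In the fit that included the mitochondrial rRNA share, the difference in CPM was 0.48 and the relative one 0.12. The annotated antisense gene Gm20402 shares 674 exonic bases with Foxo1, and their reads cannot be told apart without strand.

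Foxo3 (ENSMUSG00000048756; chromosome 10, 42181841 to 42276755, minus strand), the relative of Foxo1 linked to stress resistance and cell survival, was at 24.3, 39.2, 22.1 and 44.7 CPM in WT replicates 1 to 4. It was at 53.4, 56.4, 90.5, 100.2 and 71.3 CPM in KO replicates 1 to 5. Every library labelled KO lay above every library labelled WT in CPM. The log2 difference in CPM was 1.18, against 0.72 with the mitochondrial rRNA share and 0.73 with the endothelial marker mean in the fit. On the relative scale the groups overlapped, with a difference of 0.21 (SE 0.31), close to the median of all genes. Foxo4, the third family member in the table, was at 19.7 ± 12.8 CPM (SD, n = 4) and 35.5 ± 19.2 CPM (SD, n = 5), a relative difference of −0.12 (limma adjusted p = 0.933).

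Depp1 stood apart from the other 7 genes. Depp1 (ENSMUSG00000048489; chromosome 6, 116650609 to 116652794, plus strand) encodes a small protein induced by FOXO factors and linked to autophagy. It was at 6.30, 22.6, 21.5 and 20.0 CPM in WT replicates 1 to 4. The KO replicates 1 to 5 were at 114, 103, 242, 149 and 232 CPM. The lowest library labelled KO was thus well above the highest labelled WT. The means were 17.6 ± 7.60 and 168 ± 65.3 CPM (SD, n = 4 and 5), a ratio of 9.56. The relative levels averaged 0.61 ± 0.56 and 2.87 ± 0.44, also without overlap. Of all 11802 genes, 12 had a larger relative difference than the 2.26 (SE 0.33) of Depp1. The difference was 2.22 in a fit that included the mitochondrial rRNA share and 1.95 in one that included the endothelial marker mean.

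Ratios within a library do not depend on how the library was scaled. Depp1 per Foxo3 was 0.259, 0.576, 0.976 and 0.447 in WT replicates 1 to 4. The KO replicates 1 to 5 had ratios of 2.14, 1.82, 2.68, 1.49 and 3.25. The ratios of the groups did not overlap. More Foxo3 than Depp1 was counted in every library labelled WT, and more Depp1 than Foxo3 in every library labelled KO. These counts were not divided by exon length, which is 7571 bases for Foxo3 and 1358 for Depp1. Per kb of exon, Depp1 was also above Foxo3 under WT. In WT replicates 1 to 4, Depp1 was at 4.64, 16.6, 15.9 and 14.7 CPM per kb. Foxo3 was at 3.21, 5.17, 2.91 and 5.9 CPM per kb there. Depp1 per Kdr, the VEGF receptor gene used here as an endothelial reference, ran from 0.0306 to 0.0777 under WT and from 0.117 to 0.174 under KO, again with no overlap. Depp1 per Foxo1 did overlap, because WT replicate 3, low in Foxo1, had a ratio of 5.85. Rassf4 lies over Depp1 on the opposite strand, and the libraries did not mark strand. The exons of the pair share 0 bases, and Rassf4 was at 11.6 ± 9.17 and 32.2 ± 10.4 CPM (SD, n = 4 and 5). Depp1 per Rassf4 ran from 0.808 to 4.39 under WT and from 2.26 to 12.7 under KO.

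Txnip was the most abundant of the 8 genes and the other one whose groups did not overlap on either scale. Txnip (ENSMUSG00000038393; chromosome 3, 96557957 to 96561883, plus strand) encodes thioredoxin-interacting protein, an arrestin-family protein that binds thioredoxin and limits glucose uptake. It was at 118, 269, 176 and 417 CPM in WT replicates 1 to 4. The KO replicates 1 to 5 were at 674, 581, 1140, 726 and 949 CPM. WT replicate 4, with the lowest mitochondrial rRNA share of its group, was the nearest WT library to the KO range. The means were 245 ± 130 and 814 ± 227 CPM (SD, n = 4 and 5), a ratio of 3.32, and the relative difference was 0.86 (SE 0.27). The log2 difference in CPM was 1.84, and 0.97 in the fit that included the mitochondrial rRNA share. The relative difference was 0.57 in the fit that included the endothelial marker mean. Of all genes, 10.4% had a larger relative difference. Depp1 per Txnip was 0.0768 ± 0.0343 under WT and 0.202 ± 0.0298 under KO (SD, n = 4 and 5). Every library labelled KO thus had a higher ratio than every library labelled WT. Antisense Gm15441 shares 606 exonic bases with Txnip, and its reads cannot be told apart without strand.

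**Figure D1:**
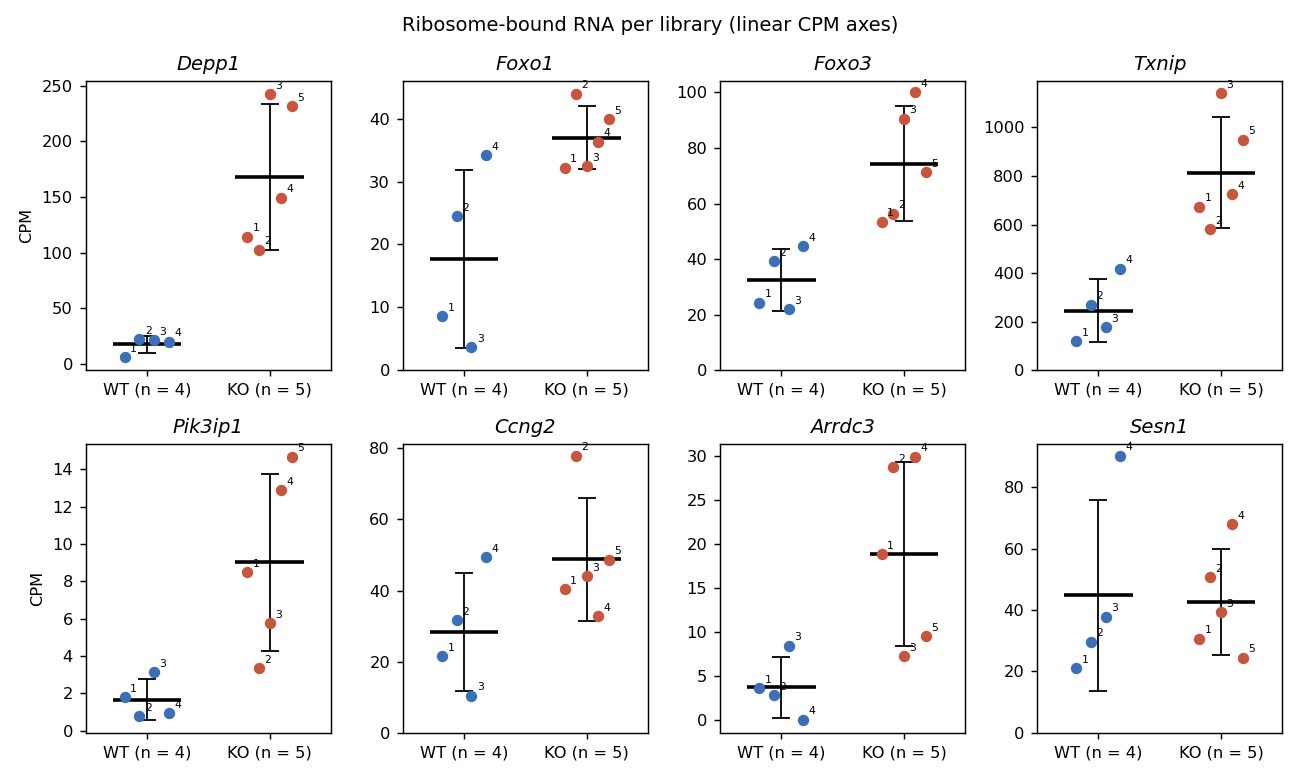
Level of each gene in every library, in CPM on linear axes; points are libraries with their replicate numbers, and lines with bars are group means with SD (n = 4 WT, n = 5 KO). Depp1, Foxo3, Txnip and Pik3ip1 show no overlap between the groups, while WT replicate 4 is the highest Sesn1 value at 90.3 CPM.

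Pik3ip1 and Arrdc3 had the fewest reads of the 8 genes, and their relative differences moved most with the pseudocount. Pik3ip1 (ENSMUSG00000034614; chromosome 11, 3330401 to 3342971, plus strand) encodes a membrane protein that restrains PI3K. It was at 1.80, 0.79, 3.15 and 0.95 CPM in WT replicates 1 to 4, which rest on 4, 2, 6 and 1 reads. It was at 8.50, 3.34, 5.77, 12.9 and 14.7 CPM in KO replicates 1 to 5, from 28, 7, 16, 22 and 57 reads. The groups did not overlap in CPM, but WT replicate 3 and KO replicate 2 were 1 read apart in counts of 6 and 7. In relative level the groups overlapped, with a difference of 0.87 (SE 0.60). It was 0.25 with a pseudocount of 5, 0.53 without WT replicate 4 and 1.49 in the fit that included the mitochondrial rRNA share. Gm12592, on the opposite strand, shares 91 exonic bases with Pik3ip1.

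Arrdc3 (ENSMUSG00000074794; chromosome 13, 80883384 to 80896042, plus strand) encodes an arrestin-domain protein that directs receptors to ubiquitin ligases. It was at 3.60, 2.77, 8.40 and 0 CPM in WT replicates 1 to 4. It was at 18.8, 28.7, 7.21, 29.9 and 9.52 CPM in KO replicates 1 to 5. KO replicates 1, 2 and 4 were clearly higher than the rest, and WT replicate 3 lay above KO replicate 3. WT replicate 4 had 0 reads, which allows up to 2.85 CPM, and intervals of this kind cover counting error only. The relative difference of 1.30 (SE 0.71) was 0.48 without WT replicate 4, 0.65 with a pseudocount of 5 and 1.58 with one of 0.5. In the fit that included the mitochondrial rRNA share it was 3.19, and with the endothelial marker mean 2.55.

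Ccng2 had no stable direction in relative level. Ccng2 (ENSMUSG00000029385; chromosome 5, 93267257 to 93276231, plus strand), which encodes the growth-restraining cyclin G2, was at 21.6, 31.7, 10.5 and 49.4 CPM in WT replicates 1 to 4. It was at 40.4, 77.9, 44.0, 32.8 and 48.6 CPM in KO replicates 1 to 5. WT replicate 4 exceeded all but KO replicate 2, and the relative difference was −0.08 (SE 0.39). Its sign turned in 7 of 20 alternatives. In CPM the log2 difference of 0.90 was 0.51 without WT replicate 3 and 0.38 in the fit that included the mitochondrial rRNA share.

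Sesn1 was the 1 gene of the 8 that lay well below the shift of all genes. Sesn1 (ENSMUSG00000038332; chromosome 10, 41809935 to 41908424, plus strand) encodes sestrin 1, a leucine-sensing inhibitor of mTORC1 that is also a p53 target. It was at 21.2, 29.7, 37.8 and 90.3 CPM in WT replicates 1 to 4. The KO replicates 1 to 5 were at 30.7, 50.7, 39.3, 67.9 and 24.4 CPM. The highest single value belonged to WT replicate 4, and the CPM of the groups overlapped almost entirely. The means were 44.7 ± 31.1 and 42.6 ± 17.2 CPM (SD, n = 4 and 5). While 94.6% of all genes had a log2 difference above 0 in CPM, that of Sesn1 was 0.06 (SE 0.46), −0.85 in the fit that included the mitochondrial rRNA share and 0.46 without WT replicate 4. Its relative difference of −0.92 (SE 0.37) was exceeded by 93.8% of genes. Sesn1 per Foxo3 was 1.34 ± 0.623 under WT and 0.586 ± 0.217 under KO (SD, n = 4 and 5), with an overlap between WT replicates 1 and 2 and KO replicate 2. Without WT replicate 4 the relative difference was −0.73, and without KO replicate 5 it was −0.70.

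**Figure D2:**
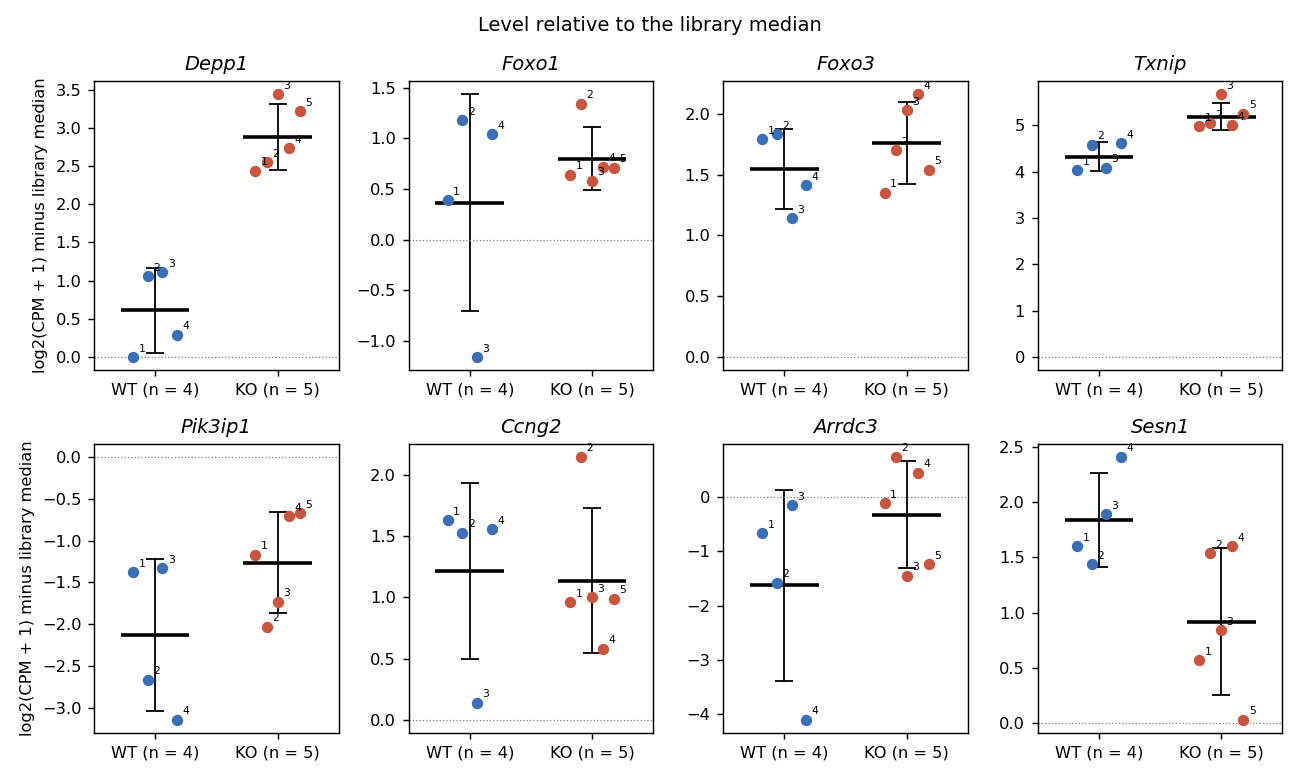
The same genes as log2(CPM + 1) minus the library median, with libraries as numbered points and group means with SD (n = 4 WT, n = 5 KO). Depp1 and Txnip keep separate groups, Foxo1 and Foxo3 overlap, and Sesn1 averages 1.84 under WT and 0.92 under KO.

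Counted together in CPM, 4 of the 8 had all libraries labelled KO above all labelled WT, beside 18.7% of all genes, and in relative level 2 of the 8 did, beside 2.07%. None of the 8 had all libraries labelled KO below all labelled WT, beside 0.0254% of all genes in CPM and 1.74% in relative level. Since the genes were chosen with this contrast known, the counts are given only as a description. The median relative difference was 0.65 over the 8 genes and 0.12 over all genes.

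**Figure D3:**
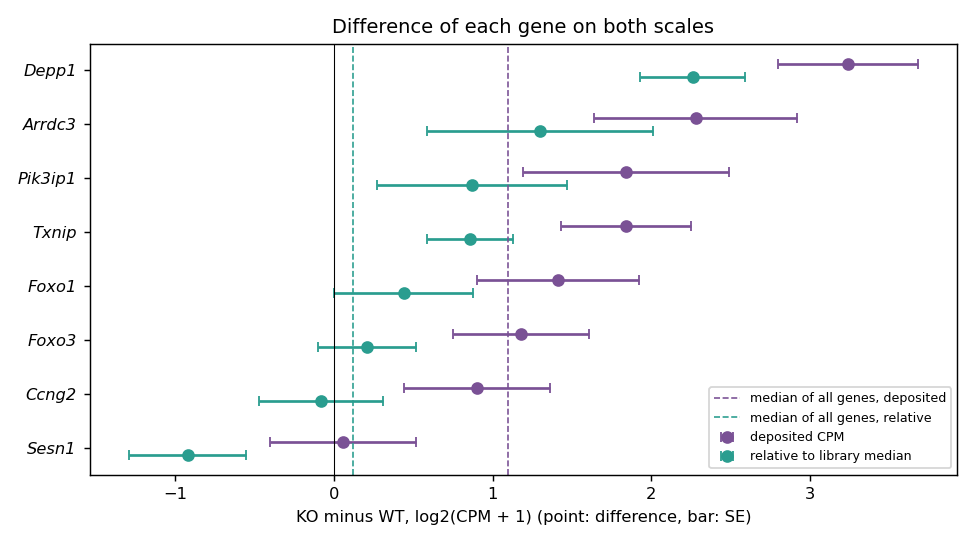
Difference between libraries labelled KO and WT for each gene, on log2(CPM + 1) as deposited and relative to the library median; points are differences, bars are SE, and dashed lines mark the medians of all genes (1.10 and 0.12). Depp1 lies farthest to the right on both scales and Sesn1 farthest to the left.

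The order of the levels compares genes within a library. Levels were divided by exon length and neighbours were compared within each of the 9 libraries by an exact two-sided sign-flip permutation test, adjusted over the 7 neighbouring pairs. The smallest p this design gives is 0.00391, and the order was taken from the same values. The direction of each step was thus set beforehand, and p describes only how even it was over the libraries. The adjustment also covers the steps with Depp1, for which no test is given. Txnip led at 180 ± 112 CPM per kb (SD, n = 9), above Depp1 at 74.5 ± 67.7 in 9 of 9 libraries (log2 ratio 1.78). Depp1 was followed by Sesn1 at 10.9 ± 5.69 CPM per kb. No test is given for either step with Depp1, since high Depp1 in the libraries labelled KO chose the gene. The step to Sesn1 rests on those libraries. There Depp1 was at 124 ± 48.1 and Sesn1 at 10.7 ± 4.33 CPM per kb (SD, n = 5). Under WT they stood at 13.0 ± 5.60 and 11.2 ± 7.82 (SD, n = 4), and Sesn1 was the higher in WT replicates 1 and 4. Sesn1 and Foxo3 (7.37 ± 3.60; exact permutation adjusted p = 0.116, n = 9) were not separated by the test. Foxo3 and Ccng2 (7.26 ± 3.51; exact permutation adjusted p = 0.961, n = 9) differed by far less than their spread.

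Further down, Ccng2 lay above Foxo1 (3.28 ± 1.59 CPM per kb) in 9 of 9 libraries (log2 ratio 1.27, exact permutation adjusted p = 0.0137). Foxo1 was not separated from Arrdc3 (1.93 ± 1.77; exact permutation adjusted p = 0.126, n = 9), nor Arrdc3 from Pik3ip1 (1.35 ± 1.21; exact permutation adjusted p = 0.961, n = 9). Per kb, Foxo3 was therefore counted above Foxo1, with Foxo3 per Foxo1 in CPM above 1 in each of the 9 libraries, from 1.28 to 5.99. Ranked from highest to lowest, the genes had the same places under both labels, except that Ccng2 and Foxo3 traded places 4 and 5.

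**Figure D4:**
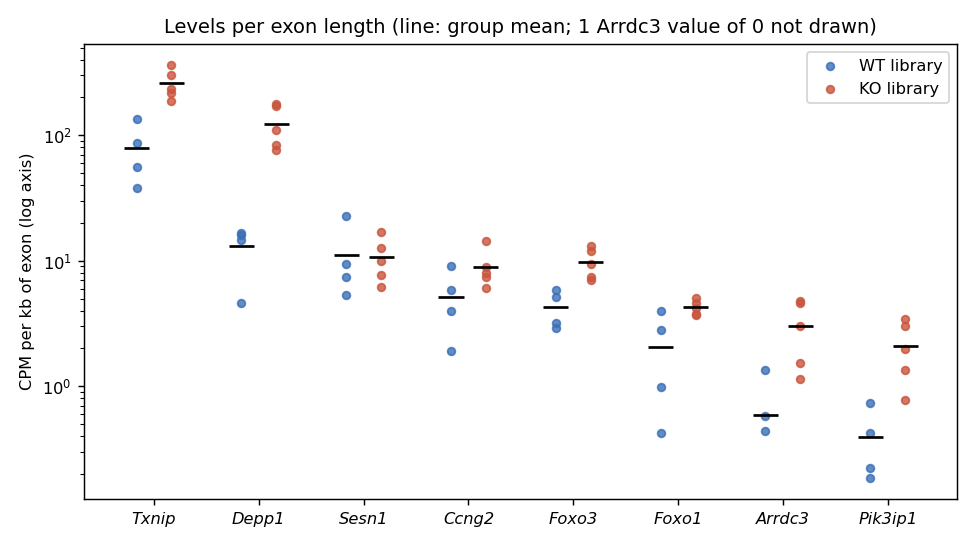
CPM per kb of exon for the 8 genes on a log axis, with points for libraries and lines for group means (WT n = 4, KO n = 5; a single Arrdc3 value of 0 cannot be drawn). Txnip is at the top in both groups, and Depp1 is near Sesn1 under WT and far above it under KO.

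Whether the genes moved with Depp1 from library to library was examined after removing each group's mean, which leaves out the difference that chose them. Over 9 libraries, Txnip had a Pearson r of 0.53 with Depp1 (exact permutation within groups p = 0.163, adjusted over 7 genes 0.828) and a Spearman rho of 0.52 (exact permutation p = 0.198, adjusted 0.884). Without WT replicate 3 and KO replicate 3, the libraries farthest from the median of Depp1, r was 0.63. Of all genes, 11.1% had a higher r with Depp1 than Txnip did. The other genes had r from −0.47 for Ccng2 to 0.04 for Pik3ip1, with exact permutation adjusted p from 0.828 to 0.936 (n = 9). Foxo1 was at −0.34 and Foxo3 at 0.03, and r became 0.27 and 0.14 without those 2 libraries. In log2(CPM + 1) without the library median removed, r was 0.79 for Txnip, 0.53 for Foxo3 and 0.17 for Foxo1, values that also hold what each library shares over all genes. In relative level no r of the factors with Depp1 passed the test with these libraries. The 5 genes of at least 20 CPM with the highest r, a ranking over all genes that carries no test, were Lin7c (0.935), Elf1 (0.935), Plekha3 (0.930), Nek9 (0.905) and Ccn1 (0.903), with rho from 0.75 to 0.92.

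Around the 8 genes, 115 of 129 listed genes of the pathway were in the table, and 50 of them rose in the deposited CPM (43.5%, limma adjusted p under 0.05) and 0 fell, beside 32.0% of all genes called higher and 0.203% called lower. In relative level 1 rose and none fell, beside 0.0339% of all genes called higher and 0.0763% called lower. At an unadjusted p under 0.05 there were 13 higher and 7 lower of the 115, beside 707 and 671 of all 11802 genes. On the recovered reads edgeR called 0 of the 115 at an adjusted p under 0.05, against 0.00847% of all genes called higher and 0.0169% lower. At an unadjusted edgeR p under 0.05 there were 6 higher and 6 lower of the 115. No share of all genes is given here for these, so they are not read as an excess or a lack. DESeq2 called Ddit4 and Sgk1 higher and Sfn and Pik3cd lower, against 0.357% and 1.38% of the genes it gave an adjusted p. The count of 50 was 19 without WT replicate 1, 27 without WT replicate 3, 26 without KO replicate 3 and 28 without KO replicate 5. It was 1 in a fit that included the mitochondrial rRNA share and 1 in one that included the endothelial marker mean. The 32.0% of all genes belongs to the fit with 50 calls. Shares of all genes in these other fits are not given here. Whether the lower counts are particular to the pathway genes was not tested. The lists overlap in a few genes. They were chosen with earlier results of these data known, so the shares and calls within them are not an independent test.

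Among 45 measured FOXO targets other than the 6 above, 20 rose in CPM (44.4%, beside 32.0% of all genes) and 0 fell, with a relative median of 0.30 (0.12 over all genes). The gene that rose in relative level was Ddit4, which encodes the mTORC1 inhibitor REDD1, from 32.4 ± 14.6 to 245 ± 69.1 CPM (SD, n = 4 and 5). Its relative difference was 1.99 (limma adjusted p = 0.0403), and leaving out any single library except WT replicate 2, KO replicate 1 or KO replicate 5 ended that call (limma adjusted p from 0.0511 to 0.147). Vcam1, the leukocyte adhesion molecule, rose from 16.9 ± 9.18 to 75.2 ± 24.2 CPM (log2 difference 2.18, limma adjusted p = 0.00350; relative 1.20, adjusted p = 0.153). Cdkn1a, the cell cycle inhibitor p21, rose by a log2 difference of 2.34 in CPM (adjusted p = 0.00522), and Klf6, a zinc finger factor, by 1.97 (adjusted p = 0.00675). Their relative differences of 1.36 and 1.00 had limma adjusted p = 0.261 and 0.320. Cdkn1b, the classical FOXO target p27, was at 14.6 ± 3.83 and 28.7 ± 5.70 CPM (relative −0.04, adjusted p = 0.981).

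Of 34 measured genes of insulin and growth factor signalling through PI3K and AKT, 17 rose in CPM (50.0%, beside 32.0% of all genes) and 0 fell, with a relative median of 0.19 (0.12 over all genes). They included Sgk1, a kinase related to AKT that also phosphorylates FOXO3, which went from 25.2 ± 7.82 to 133 ± 55.6 CPM (SD, n = 4 and 5; log2 difference 2.30, limma adjusted p = 0.00169). Its relative difference was 1.32 (limma adjusted p = 0.131; DESeq2 adjusted p = 0.0333). Ppp2r1a, a scaffold subunit of the phosphatase PP2A, Tek, the angiopoietin receptor, and Igf1r, the IGF1 receptor, rose by 2.05, 1.70 and 1.91 on the log2 scale in CPM (adjusted p from 0.00862 to 0.00982). In relative level they were at 1.07, 0.72 and 0.93 (adjusted p from 0.381 to 0.445).

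Of 17 measured FOXO regulators, 6 rose in CPM (35.3%, near the 32.0% of all genes) and 0 fell, with a relative median of −0.12 (0.12 over all genes). In relative level none of the 17 had all libraries labelled KO above all labelled WT, and 3 had all of them below. Over all genes the shares were 2.07% above and 1.74% below. The FOXO targets had 3 above and 0 below, the PI3K and AKT genes 1 and 0, and the relatives and partners 1 and 0. The 14-3-3 genes Ywhae, Ywhaq and Ywhaz, whose proteins hold phosphorylated FOXO in the cytoplasm, rose by 1.76, 1.69 and 1.67 on the log2 scale (limma adjusted p from 0.00714 to 0.00880), as did Ywhab by 1.28 (adjusted p = 0.0213). The other 14-3-3 genes did not pass, with Ywhah at 0.96, Ywhag at 0.37 and Sfn at −0.86 in CPM (adjusted p = 0.0598, 0.421 and 0.227). In relative level Ywhah was at −0.02, Ywhag at −0.61 and Sfn at −1.83 (limma adjusted p = 0.988, 0.344 and 0.192; DESeq2 adjusted p for Sfn 0.0465). Usp7, a deubiquitinase that acts on FOXO proteins, rose by 1.37 (adjusted p = 0.0205). The relative differences of Usp7 and the 14-3-3 genes that rose ran from 0.30 to 0.79 (adjusted p from 0.326 to 0.719).

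Among 24 relatives and partners of the 8 genes, 8 rose in CPM (33.3%, near the 32.0% of all genes) and 0 fell, with a relative median of 0.19 (0.12 over all genes). Seh1l, a subunit of the GATOR2 complex that sestrins bind, rose from 8.60 ± 5.61 to 46.9 ± 17.9 CPM (SD, n = 4 and 5; log2 difference 2.45, limma adjusted p = 0.00328; relative 1.47, adjusted p = 0.153). Nedd4, a ubiquitin ligase that arrestin-domain proteins recruit, Gak, a cyclin G-associated kinase, and Txn1, the thioredoxin that TXNIP binds, rose by 1.44, 1.21 and 1.39 in CPM (limma adjusted p from 0.0135 to 0.0271). The median over all genes was 1.10 there. In relative level these 3 genes were at 0.46, 0.23 and 0.42 (limma adjusted p from 0.531 to 0.791). Arrdc4, the arrestin-domain gene that shares glucose regulation with Txnip, was at 42.3 ± 27.4 and 89.9 ± 44.3 CPM (relative 0.13, adjusted p = 0.919). Sesn2 and Sesn3, the other sestrins, had relative differences of −0.82 and −0.07 (adjusted p = 0.615 and 0.974), and Ccng1, the other cyclin G gene, 0.09 (adjusted p = 0.956).

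**Figure D5:**
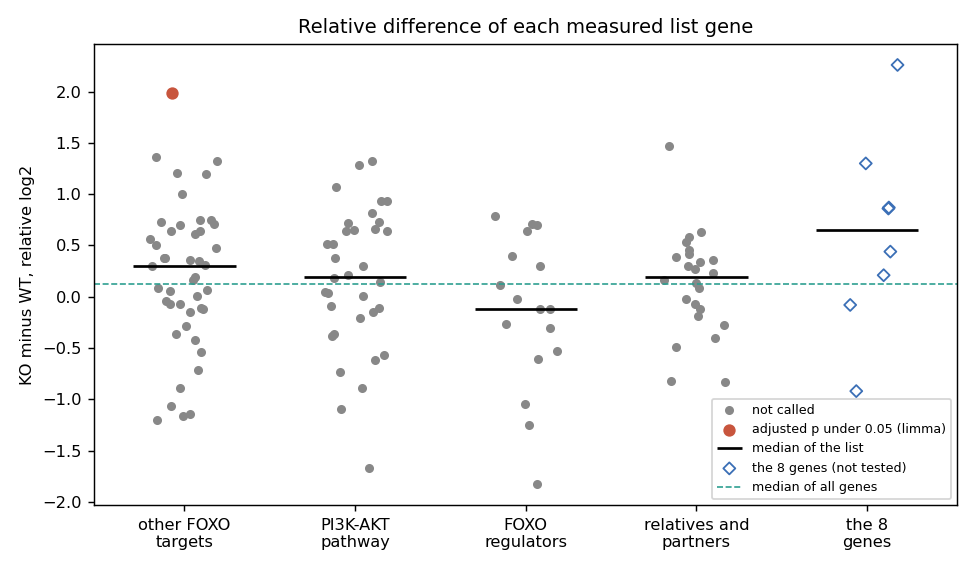
Relative difference between libraries labelled KO and WT for every measured gene of the 4 pathway lists and, as open diamonds with no test, the 8 genes; black lines are medians and the dashed line is the median of all genes (0.12). Ddit4 at 1.99 is the single called list gene, and the list medians lie between −0.12 and 0.30.

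Markers of other cells were read beside these values. The summed level of 8 adipocyte markers ran from 594 to 1160 CPM under WT and from 715 to 2339 under KO, and that of 6 fibroblast markers from 2684 to 8882 and from 1652 to 12715. The 5 mural markers summed to 103 to 226 CPM and 277 to 466 CPM, and the 8 macrophage markers to 215 to 937 and 475 to 1149. The 7 skeletal muscle markers ran from 41.4 to 125 CPM under WT and from 296 to 6376 under KO, with KO replicate 5 highest. The groups did not overlap for the mural and muscle sums, but these CPM sums also hold the shift of all genes. In relative level the median difference was 0.17 for the mural markers and 2.29 for the muscle markers, beside 0.12 over all genes. It was −0.31 for adipocyte, −0.66 for fibroblast, −0.33 for macrophage and 0.45 for endothelial markers. On that scale 0 of 5 mural and 3 of 7 muscle markers lay wholly higher under KO, beside 2.07% of all genes. The part of these cells in the values of the 8 genes was not tested.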

How the data were processed

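The authors deposited CPM, read counts brought to the same total in each library, of 11802 genes in 9 libraries. Per the labels' protocols, captures came from 50 to 100 mg of tissue and cDNA from 2 to 5 ng of RNA. HISAT2 2.1.0, Trimmomatic 0.39, FastQC 0.11.9, R 4.0.2 and edgeR 3.32.0 appear in the submitters' processing notes, with GRCm38 and mm10 but no roles. The sources used here do not give the read counter or its strand setting. No animal is named for any replicate, and p-values therefore describe only how these libraries vary.

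Symbols, coordinates and exon lengths came from GENCODE M21 (11787 identifiers matched). Deposited CPM were whole multiples of 1 step per library (at least 99.973% within 0.1 read), which gave reads. The test was limma 3.58.1 (R 4.3.3) with trend on log2(CPM + 1), as deposited or minus the library median. Benjamini-Hochberg adjustment ran over all genes, at 0.05. Alternatives included edgeR 4.0.16, DESeq2 1.42.0 and leaving out each library. Permutation tests used scipy 1.17.1. The limma step was tested on simulated data. The genes and lists were chosen with earlier results of these data known. Named list genes are those called in relative level, the 4 with the smallest p among those called in CPM, and relatives of the 8 genes; Cdkn1b and the 14-3-3 genes Ywhab, Ywhag, Ywhah and Sfn were named after their values were seen.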

Additional observations from a re-analysis of the deposited data

Results flagged for a closer look

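Within the libraries labelled WT, Depp1 in replicate 1 lay apart, at 6.30 CPM against 19.96 CPM in the nearest library, a gap that is 0.841 of the range of the group. Chance alone sets about 1 in 20 groups apart in this way, and 16 groups of values were examined. That library had 14 Depp1 reads and the highest mitochondrial rRNA share, 64.2% of reads. Without it the relative difference of Depp1 was 2.06.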

How the results depend on the processing

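The 115 pathway genes gave 50 calls in the deposited CPM. The count was 1 with the mitochondrial rRNA share and 1 with the endothelial marker mean as a term in the fit, and ran from 19 to 69 when 1 library was left out. Shares of all genes in those fits are not given here, so whether the changes are particular to these genes was not tested. In relative level the single call became 0 with a pseudocount of 0.5, 0 in limma without trend, 0 in edgeR, 4 in DESeq2, 0 with the mitochondrial rRNA term, 0 with the endothelial term and 0 to 3 when 1 library was left out. With the replicate number as a block the counts were 32 and 1. That block also drops KO replicate 5, whose number has no partner. Deviations of same-numbered libraries correlated between −0.04 and 0.04 across genes, so the numbers were not treated as pairs. The relative difference of Ccng2 changed sign to 0.02 with a pseudocount of 5, 0.02 with the mitochondrial rRNA term and 0.02 with the endothelial term, and ran from −0.44 to 0.06 when 1 library was left out. That of Foxo1 ran from −0.07 to 0.71. In CPM, the difference of Sesn1 was −0.85 and −0.13 with those terms and ran from −0.22 to 0.46. The causes were not tested. With the longest transcript as length, the log2 ratio of Foxo3 over Ccng2 was −0.09 and that of Arrdc3 over Pik3ip1 −0.15. Leaving out 1 library gave −0.11 to 0.15 and −0.27 to 0.61. Without median centring, r with Depp1 was 0.17 for Foxo1, 0.21 for Sesn1, 0.53 for Foxo3 and 0.79 for Txnip. Leaving out 1 library, r ran from 0.31 to 0.81 for Txnip, −0.67 to 0.13 for Foxo1, −0.21 to 0.34 for Foxo3, −0.21 to 0.36 for Pik3ip1 and −0.59 to 0.06 for Arrdc3. In relative level Depp1, Txnip, Foxo3, Pik3ip1, Arrdc3 and Sesn1 kept their direction in all 20 alternatives run. For Foxo3 the difference was 0.03 with the endothelial term, 0.07 without WT replicate 3 and 0.36 with the mitochondrial rRNA term. The median of all genes in the main fit was 0.12. Depth limits Pik3ip1 and Arrdc3, which had 13 and 31 reads over the 4 libraries labelled WT.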
